A study of Mus musculus with 9 samples.

Results

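A and C nucleotides of conserved 5′ untranslated regions that reacted more with dimethyl sulfate after the RNA had been refolded in vitro than in untreated cells were examined in mouse E14 embryonic stem cells. The members were selected on measured values. A reading of an A or C had to have an in vitro mean at least 2 times the untreated mean, every in vitro value above every untreated value, and an in vitro mean of at least 3000 on the scale below. Of 16187 A and C readings, 603 met this (3.73%), at 553 of 13550 distinct positions, in 145 of 161 amplicons and 68 of 69 transcripts. They were 236 A and 367 C. Everything said about the size of the in vitro rise over untreated cells therefore follows from the choice and is given as a description, without a test.

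The study had 3 groups of 3 samples, all from the same line of E14 cells with no genetic change named in the labels. ATP-depleted cells had been held for 10 min with 10 mM 2-deoxyglucose and 10 mM sodium azide, which block glycolysis and respiration. Untreated cells had no such incubation. Cells of both kinds were probed in 250 mM bicine with 1.6% dimethyl sulfate, at 37 °C and for 6 min. The probing conditions of the in vitro refolded RNA are not given by the labels. Nothing in the labels says that replicates came from separate cultures, so p-values measure the spread between these samples, which may be technical. The counts recovered per amplicon and sample ran from 96 to 624295, with a median of 40815. Cell identity was not checked, since the table holds no expression levels. Values are counts per 1000000 counts (CPM) within an amplicon, so a value is a share of that amplicon's signal, and an overall rise or fall of reactivity along an amplicon cannot be seen.

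Dimethyl sulfate methylates the base-pairing face of A and C where it is free, and reverse transcription across the adduct leaves a mutation in the cDNA. A nucleotide that pairs in a helix, or that a protein shields, reacts little. The 5′ untranslated region is the stretch that the ribosome's small subunit crosses on its way to the start codon, and helices, bound proteins and ATP-driven helicases all act on it in cells. Refolding purified RNA in vitro removes the proteins, while ATP depletion withdraws the energy for helicases from RNA that is still in the cell. Which proteins stayed bound after ATP depletion was not measured here.

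The sequences on which the results turn are given first, as the deposited table has them, 5′ to 3′ with T for U. In the first 3 lines the capitals are all members in that stretch, and in the other lines the capital is the single named member. The Ddx17 lines are a pair of stretches that can pair with each other and hold the densest members, the Tulp4 line is the next densest window, and the last 5 lines are members with a very large ratio or a very high signal.
Ddx17 590 to 606: tCcCAAcAgAgtAAAAg
Ddx17 831 to 847: CttttACtCtgttggga
Tulp4 190 to 210: agcttACAgcAgAAaCttgcc
Ddx17 C821: tcctgagtggCactgatcctc
Taok2 C525: agccgggcgtCctcggggtgg
Eif5 C295: cagtcccgggCgagccgcgtt
Ctcf A297: gcagccacggAgaggaagggg
Brd2 A1533: aagctgccggAgttgcgggga
Positions are those of the deposited table, along the RefSeq transcript; whether they count from 0 or from 1 is not given there.

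The name under which such nucleotides might be put, exposed only after refolding, did not hold for all of them. The untreated mean of 213 of the 603 members (35.3%) was at or above 6394 CPM, the median of all A and C values, against 52.1% of all A and C. Those members already reacted in cells at or above that pooled median and reacted still more in vitro. The other members were weaker than that in cells. The pooled median does not part the bases. The untreated mean had a median of 8715 CPM over all A and 4924 CPM over all C. It was 5977 CPM over A members and 4649 CPM over C members, so the median C member was near an ordinary C in cells. Here the members are called nucleotides raised after refolding.

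Across samples, the in vitro libraries stood apart from both in-cell groups. The median member read 4582, 4941 and 5193 CPM in the 3 untreated samples and 12975, 13651 and 11264 CPM in the 3 in vitro samples. In the ATP-depleted samples, which the choice did not use, the median member read 5414, 5297 and 5492 CPM. All 3 ATP-depleted medians were above all 3 untreated medians, which were chosen low, and by far less than their distance to the in vitro samples. The group means of single members ran from 230 to 41830 CPM in untreated cells, 199 to 43716 CPM after ATP depletion and 3006 to 87552 CPM in vitro.

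A members were the stronger ones. Their medians were 5219, 6034 and 6624 CPM in untreated cells, 6618, 6700 and 6587 CPM after ATP depletion, and 14187, 15996 and 12691 CPM in vitro. C members had medians of 4239, 4591 and 4508 CPM in untreated cells, 4836, 4764 and 4756 CPM after ATP depletion, and 12791, 12565 and 10612 CPM in vitro. In the ATP-depleted samples, which the choice did not use, the median A member lay below the median of all A (8553, 8024 and 8767 CPM), while the median C member lay slightly above the median of all C (4548, 4555 and 4690 CPM).

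**Figure D1:**
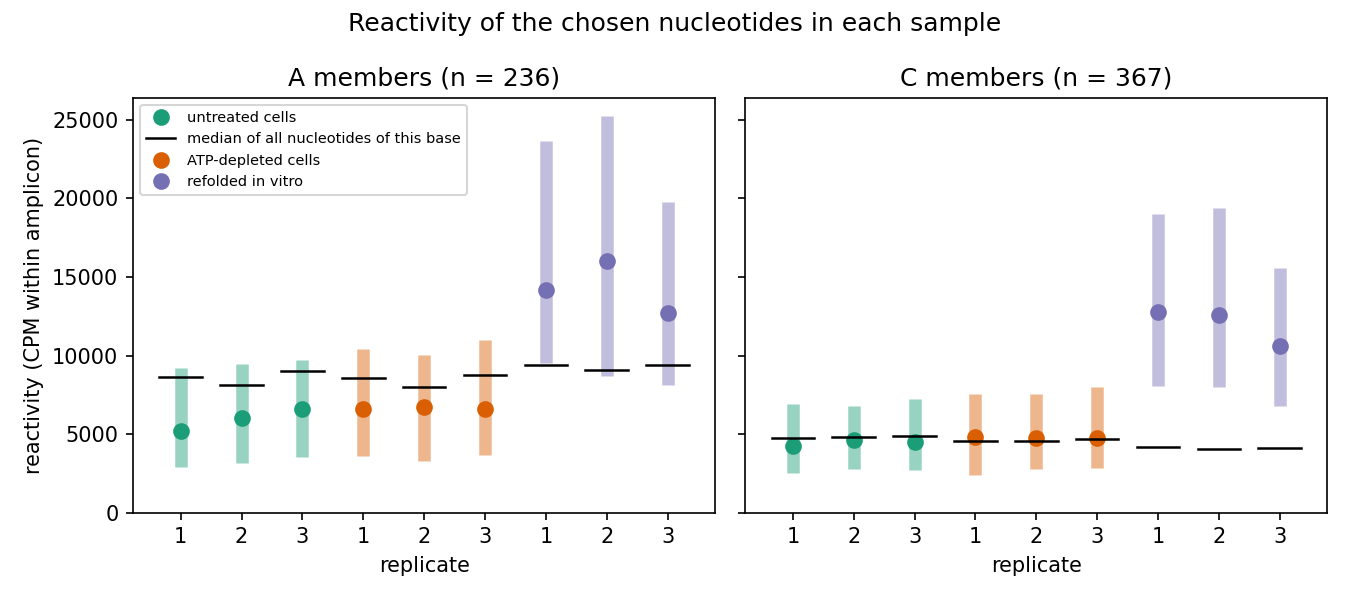
Reactivity of A members (left) and C members (right) in each of the 9 samples, in CPM within the amplicon; dots are medians over members, thick bars the quartiles, and black lines the median of all nucleotides of that base. The ATP-depleted medians of C members, 4756 to 4836 CPM, lie slightly above the untreated ones, 4239 to 4591 CPM, which were chosen low. The in vitro ones start at 10612 CPM.

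The rise over untreated cells had a median of 2.46 times and a range of 2.00 to 22.2 times. Most members lay close to the threshold: 435 were between 2 and 3 times, 117 between 3 and 5 times, 51 at 5 times or more, and 12 at 10 times or more. Just inside the fold threshold were A657 of Tulp4, a Tubby-like protein, at 2.00 times and A140 of Tek, the angiopoietin receptor, at 2.01 times. Just outside were A1328 of Brd2, a bromodomain protein, and A277 of Ctcf, the zinc-finger insulator protein, both below 2 by less than rounding shows (2.00). Next to the level threshold, Fam13b C514 (3006 CPM) and Ddx17 C802 (3122 CPM) were in, and D830031N03Rik C622 (2695 CPM) and Ddx17 C592 (2829 CPM) were out. With limma, 490 of the 603 members were past an adjusted p of 0.05 for in vitro above untreated; the share over all 16178 tested A and C was 8.08%, and nothing is read from this count because the choice used the same contrast.

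ATP-depleted cells gave the members' level in samples the choice had not used, although the in vitro values set beside them had been selected to be high. In vitro the mean was at least 2 times the ATP-depleted mean at 438 members (72.6%), 1.5 to 2 times at 139, 1 to 1.5 times at 25, and below it at 1. The median ratio was 2.36 (range 0.666 to 25.9). In all, 518 members (85.9%) had every in vitro value above every ATP-depleted value, against 19.1% of all A and C. With a ratio of at least 2 as well, the count was 410 (68.0%), against 4.66% of all A and C. With limma, 437 members (72.5%) were higher in vitro at an adjusted p under 0.05 and 0 were lower, against 8.31% of all tested A and C higher. At an unadjusted p under 0.05 by limma, 530 members (87.9%) were higher and 0 lower, against 16.7% higher and 13.6% lower over all tested A and C. The choice of high in vitro values favours this direction. The median log2 change from ATP-depleted cells to in vitro was 0.86 over members and 0.03 over all tested A and C. Log2 changes given here were taken after 3196.78 CPM had been added to each value, so they understate weak nucleotides.

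Expressed as a share of the in vitro mean, the median member reached 41.2%, 40.6% and 43.3% in the 3 ATP-depleted samples (41.7% ± 1.41, SD, n = 3). In the untreated samples, which were chosen low, it reached 38.0%, 39.4% and 41.2% (39.5% ± 1.62, SD, n = 3). Over all A and C with an in vitro mean of at least 3000 CPM, the ATP-depleted share was 86.3% ± 3.32 (SD, n = 3). Over single members the ATP-depleted share had quartiles of 32.1% and 50.9% and ran from 3.86% to 150%. The shares in the ATP-depleted samples and in the untreated samples overlapped; the rule itself held each member's untreated share to at most 50%.

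Between ATP-depleted and untreated cells no member passed. limma called 0 of 603 members at an adjusted p under 0.05, and 0% of all tested A and C, with 0.999943 as the smallest adjusted p. At an unadjusted p under 0.05 there were 30 higher members (4.98%) and 14 lower members (2.32%), against 1.22% higher and 2.71% lower over all tested A and C. The ATP-depleted mean was above the untreated mean at 365 members (60.5%), at least 1.5 times it at 56, and at most 1/1.5 of it at 40. All 3 ATP-depleted values lay above all 3 untreated values at 74 members (12.3%), against 4.45% of all A and C, and below them at 54 members (8.96%), against 7.92%. Since the untreated values of members were chosen low, an excess of higher ATP-depleted values is what the choice favours, and nothing is read from its direction. The median log2 change was 0.05 over members and -0.03 over all tested A and C.

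**Figure D2:**
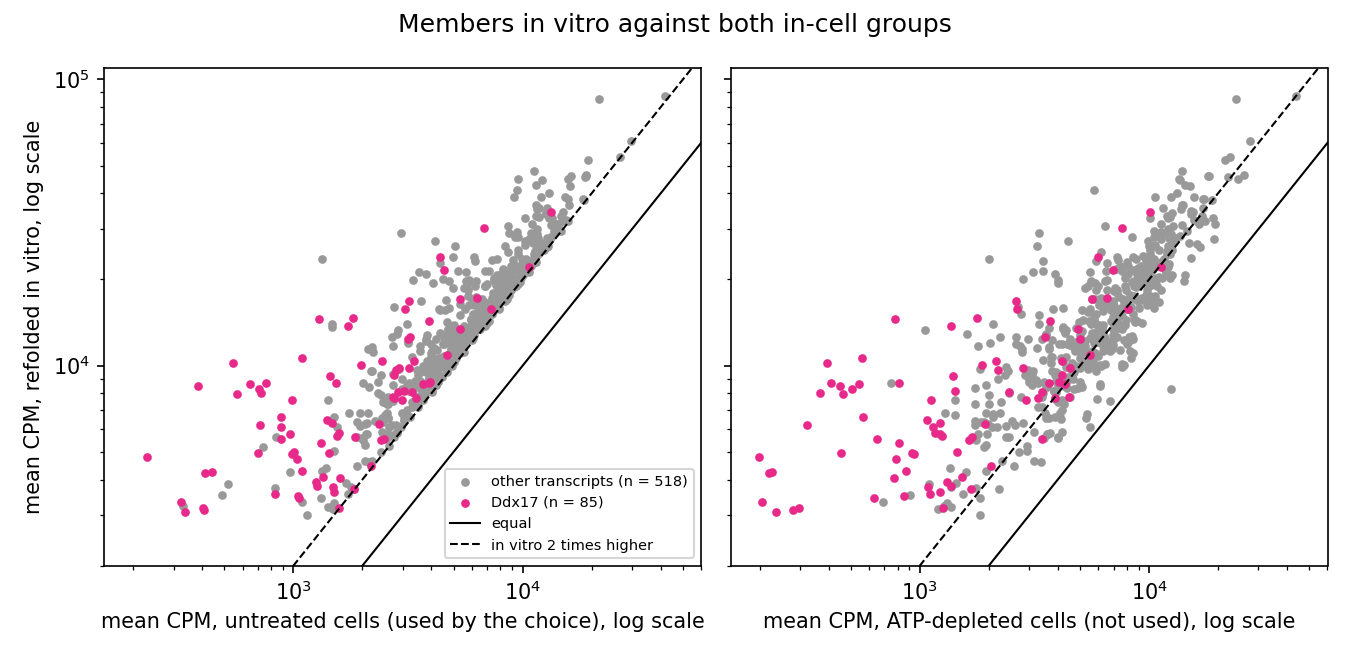
Mean CPM in vitro (vertical, log scale) against the mean in untreated cells (left, used by the choice) and in ATP-depleted cells (right, not used), 1 point per member reading; the solid line marks equal values and the dashed line in vitro 2 times higher. On the right, 438 of the 603 points lie on or above the dashed line and 1 lies below the solid line; the Ddx17 points extend furthest to the left.

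Among the members with the largest ratios, Ddx17 held the top. Ddx17 is a DEAD-box RNA helicase. Its C821 read 422, 365 and 359 CPM in untreated cells, 491, 470 and 387 CPM after ATP depletion, and 10083, 8162 and 7224 CPM in vitro. The in-cell values of both groups overlapped, and all in vitro values lay far above them. The log2 change from ATP-depleted cells to in vitro was 1.67 (SE 0.106, limma adjusted p 0.000155). That change includes the added 3196.78 CPM, which lies far above the in-cell values. Without it, the in vitro mean of C821 was 18.9 times the ATP-depleted mean. Ddx17 C837 read 175, 248 and 266 CPM in untreated cells, 110, 160 and 325 CPM after ATP depletion and 6143, 4776 and 3483 CPM in vitro. The log2 change of C837 from ATP-depleted cells was 1.22 (SE 0.126, adjusted p 0.00111 by limma), and its in vitro mean was 24.2 times the ATP-depleted mean.

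Outside Ddx17 the largest ratios were less even between replicates. Taok2 is a TAO-family protein kinase, and its C525 read 388, 1863 and 2152 CPM in untreated cells, 3086, 1908 and 1264 CPM after ATP depletion and 21960, 10941 and 8885 CPM in vitro (9.49 times untreated). The in vitro values did not overlap the in-cell values, and limma called it against ATP-depleted cells (log2 change 1.64, SE 0.286, adjusted p 0.00876). C218 of Klf7, a Krüppel-like transcription factor, read 303, 1228 and 2898 CPM in untreated cells, 5226, 3736 and 3675 CPM after ATP depletion and 27972, 8608 and 4322 CPM in vitro (9.24 times untreated). Here in vitro replicate 3 lay below ATP-depleted replicate 1, and the member did not pass (limma adjusted p 0.218). Taok2 C493 was far higher in in vitro replicate 3 than in the other two, at 1444, 1847 and 8314 CPM in vitro against 669, 493 and 393 CPM in untreated cells and 1898, 998 and 381 CPM after ATP depletion (7.46 times untreated, limma adjusted p against ATP-depleted cells 0.243). C111 of Ncdn, the neuronal protein neurochondrin, read 125, 754 and 582 CPM in untreated cells, 186, 1475 and 1066 CPM after ATP depletion and 857, 6392 and 3304 CPM in vitro (7.22 times untreated, limma adjusted p against ATP-depleted cells 0.173). Replicate 1 was the lowest sample of all 3 groups at that C, with 4 counts in its untreated library. Untreated counts were also few at the other members named here. Untreated replicate 1 held 5 counts at Taok2 C525 and 9 at Klf7 C218. Taok2 C493 had 9, 11 and 8 counts in the untreated samples, so these ratios are imprecise.

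Among the strongest in vitro signals, 3 were steady between replicates. Eif5 is the translation initiation factor that stimulates GTP hydrolysis by eIF2 at the start codon. Its C295 read 42520, 39560 and 43410 CPM in untreated cells, 42612, 44356 and 44181 CPM after ATP depletion and 91250, 87477 and 83931 CPM in vitro. Ctcf A297 read 31525, 27823 and 29947 CPM in untreated cells, 28542, 27555 and 26767 CPM after ATP depletion and 62007, 57631 and 62876 CPM in vitro. These nucleotides were strongly reactive in cells too, and in neither did the in vitro values overlap the in-cell values. Brd2 A1533 read 20472, 16934 and 19487 CPM in untreated cells, 17916, 15876 and 20600 CPM after ATP depletion and 46185, 50343 and 41030 CPM in vitro. The log2 changes from ATP-depleted cells to in vitro were 0.95, 1.05 and 1.20 for these 3, with limma adjusted p-values of 0.000707, 0.000597 and 0.00114. With each amplicon scaled to its own mean these changes fell to 0.45, 0.79 and 1.04, and the limma calls were kept.

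At the other end were members whose ATP-depleted level approached the in vitro level. A450 of Kmt2e, a SET-domain protein of the MLL family, read 1478, 4747 and 1914 CPM in untreated cells, 6485, 6559 and 7173 CPM after ATP depletion and 8652, 7578 and 6288 CPM in vitro. Its ATP-depleted samples lay above all untreated samples and among the in vitro samples (89.8% of the in vitro mean). A251 of E2f3, a transcription factor of the cell cycle, read 1125, 1965 and 4653 CPM in untreated cells, 8913, 3279 and 3802 CPM after ATP depletion and 6825, 7753 and 5158 CPM in vitro. C486 of Hipk3, a homeodomain-interacting protein kinase, read 2101, 3044 and 3857 CPM, then 4267, 6023 and 5814 CPM, then 5484, 9598 and 5312 CPM. None of these 3 was called between any in-cell groups, and none between in vitro and ATP-depleted cells (limma adjusted p 0.771, 0.615 and 0.516). With each amplicon scaled to its own mean, the log2 change of Kmt2e A450 from ATP-depleted cells to in vitro turned to -0.10.

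Ddx17 held the most members of any transcript. It had 85 member readings at 60 of its 315 A and C positions (19.0%), 10.8% of all member positions, and 55.3% of its readings were A against 36.5% outside it. Next came Eif5 with 26 of 215 positions (12.1%; 22 of them C), and Azin1, which encodes an inhibitor of ornithine decarboxylase antizyme, with 24 of 351 (6.84%). Smad6, an inhibitory SMAD of BMP signalling, had 18 of 290 (6.21%), and Ext1, a glycosyltransferase of heparan sulfate synthesis, had 17 of 366 (4.64%). By share, Tmtc2, a transmembrane protein of the endoplasmic reticulum, followed Ddx17 and Eif5 with 10 of 90 positions (11.1%). The median transcript had members at 3.37% of its positions, 31 transcripts had 1 to 5 members, and the share over all positions was 4.08%, or 3.72% outside Ddx17.

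**Figure D3:**
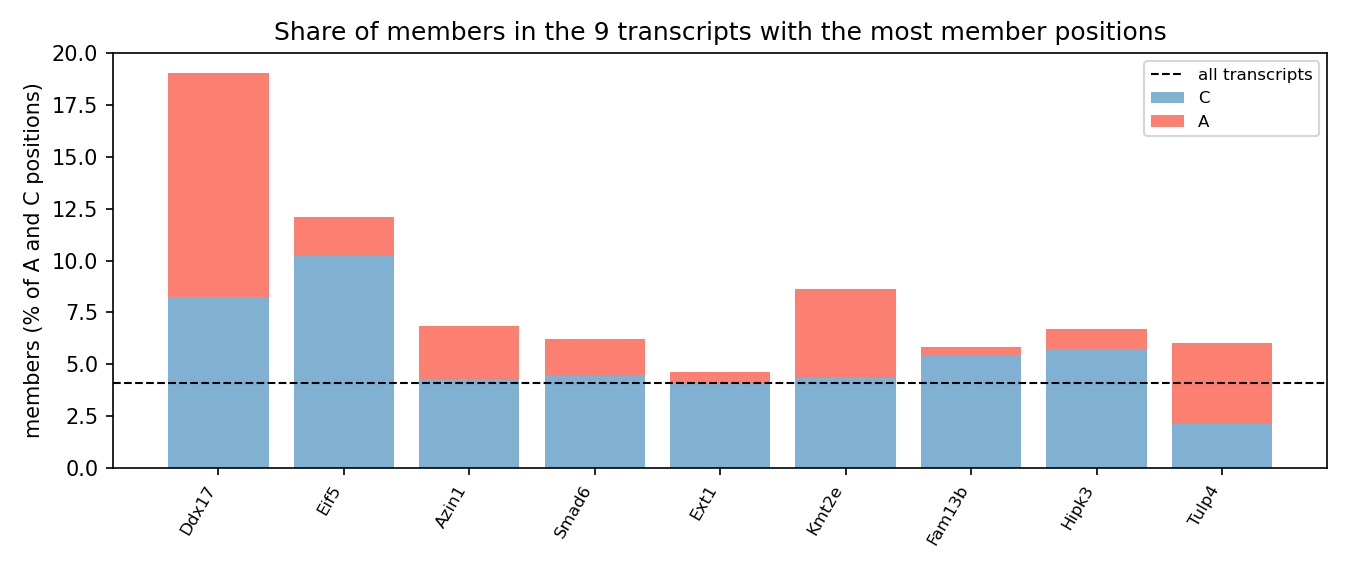
Share of A and C positions that were members, in percent, for the 9 transcripts with the most member positions, split into C and A; the dashed line is the share over all transcripts, 4.08%. Ddx17 reaches 19.0% and Eif5 12.1%, and Eif5 is mostly C.

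Few transcripts lacked members. Ptms, which encodes parathymosin, had none at 125 A and C positions, and its smallest library held 96 counts. Where no library of an amplicon fell under 5000 counts, Kdm2a, a histone demethylase, had none at 144 positions, Mapk6, an atypical MAP kinase, none at 178, and Dusp16, a phosphatase of MAP kinases, none at 98. Their other amplicons held 7, 5 and 5 members in turn, so these transcripts were not free of members.

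In Ddx17 the members were denser in the later amplicons of the leader, as a 5′ untranslated region is also called. The 5 overlapping amplicons, in order, had 7 of 80, 12 of 78, 21 of 82, 19 of 79 and 26 of 89 A and C readings as members. The mirror rule, which asks for untreated 2 times above in vitro with the same other conditions, found 6, 11, 10, 1 and 12 readings in them. Over the series the mirror rule found 1117 readings, more than the 603 members, while Ddx17 had 40 mirror readings and 85 members.

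A search of every transcript for its longest stretch whose reverse complement also occurs in the part of that transcript that was read, made after the members had been seen, found 17 nt in Ddx17, at 590 to 606 and 831 to 847, printed above. The stretches lie 224 nt apart and never fall in the same amplicon. The other transcripts had at most 13 nt, with a median of 8 nt over all 69. In the Ddx17 stretches 14 of 17 A and C positions were members (82.4%), against 15.4% of A and C elsewhere in Ddx17. In the longest stretches of the other transcripts 34 of 566 A and C were members (6.01%), against 3.62% outside them.

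The first Ddx17 stretch, an A-rich run with 12 A and C, had medians of 1058, 773 and 967 CPM in untreated cells, 822, 677 and 1040 CPM after ATP depletion and 5678, 6327 and 4902 CPM in vitro. Its partner, with 5 A and C, had medians of 414, 554 and 439 CPM in untreated cells, 274, 389 and 471 CPM after ATP depletion and 4244, 4494 and 3898 CPM in vitro, in the amplicon from 639 to 889. The same 5 nucleotides in the next amplicon gave 571, 491 and 406 CPM, 367, 277 and 466 CPM, and 5096, 4776 and 3871 CPM. All 22 A and C readings in the stretches had a higher mean in vitro than in untreated cells, from 2.02 to 20.9 times, and 21 had every in vitro value above every ATP-depleted value. limma called 20 of the 22 higher in vitro than in ATP-depleted cells, against 8.31% of all tested A and C. Of the 386 A and C readings of Ddx17 outside the stretches, 45.6% were higher in vitro than in untreated cells and 19.4% at least 2 times higher. Every in vitro value was above every ATP-depleted value at 31.9% of those 386, against 19.1% of all A and C. Most readings in the stretches are members, chosen for high in vitro values. With each amplicon scaled to its mean or its median all 22 were still higher in vitro, from 1.81 times upward.

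U was not used by the choice, and it moved with the members in these stretches. All 18 U readings were higher in vitro than in untreated cells, by a median of 14.9 times, with no overlap with the untreated or the ATP-depleted samples. Each U of the second stretch was read in both of its amplicons, so readings outnumber positions here. Their medians were 224, 297 and 241 CPM in untreated cells, 155, 268 and 211 CPM after ATP depletion and 4288, 3004 and 3483 CPM in vitro. Of all 7088 U readings 47.7% were higher in vitro, and of the 313 U of Ddx17 outside the stretches 42.5% were. Outside the stretches 15.3% of the U of Ddx17 were at least 2 times higher, against 7.25% of all U, and 19.8% had every in vitro value above every ATP-depleted value, against 8.75%, so strong rises of U were found elsewhere in this leader too. G readings were weak throughout, and 10 of 11 were higher in vitro.

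The Ddx17 members with the smallest ATP-depleted share lay in or near these stretches. The lowest single reading was C821 in the amplicon from 731 to 981, with an ATP-depleted mean of 3.86% of its in vitro mean, and its other reading gave 5.29%. With a position read in 2 amplicons taken from the reading with the larger ratio, C837, A602 and C591 were lowest, at 4.14%, 4.58% and 4.71%. A602 read 687, 563 and 906 CPM in untreated cells, 387, 301 and 411 CPM after ATP depletion and 7879, 8728 and 7419 CPM in vitro. C591 read 1198, 434 and 655 CPM, then 346, 483 and 401 CPM, then 7879, 9184 and 9074 CPM. In both, all in vitro values were far above all in-cell values. At A602 all ATP-depleted values lay below all untreated values, and at C591 these groups overlapped.

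**Figure D4:**
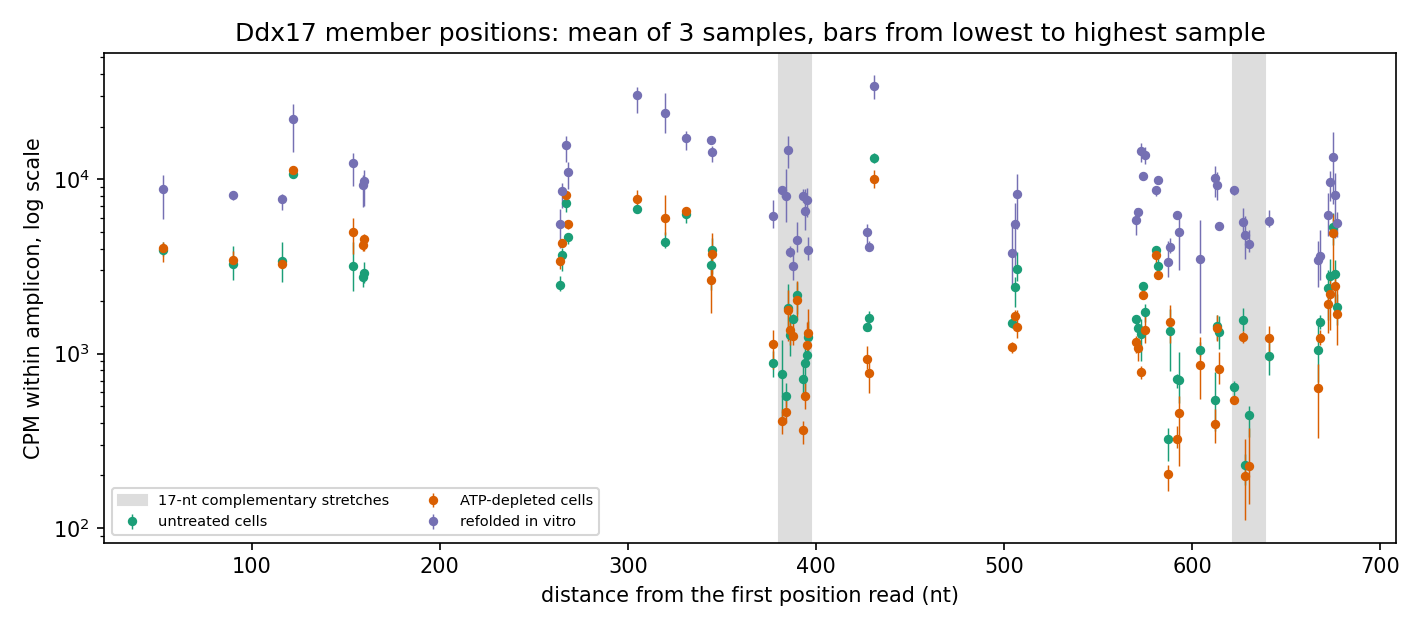
Ddx17 member positions along the leader, as distance in nt from the first position read; points are means of 3 samples in CPM within the amplicon (log scale), bars run from the lowest to the highest sample, and grey bands mark the complementary stretches of 17 nt, at distances 381 to 397 and 622 to 638. A position read in 2 amplicons is shown once, from the reading with the higher in vitro mean; in the grey bands the untreated and ATP-depleted points all lie below the in vitro points of the same position.

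Folding by ViennaRNA, which uses the sequence alone, was compared with the members. In single amplicons 45.1% of members had a probability of being unpaired of at least 0.5, against 47.1% of all A and C and 29.9% of nucleotides found by the mirror rule. For A the shares were 56.8% of members and 61.3% of all, and for C they were 37.6% and 36.6%. The members were thus predicted about as often unpaired as any A or C. When the 746 nt of Ddx17 from 209 to 954 were folded as 1 molecule, a choice made after seeing the data, the 17-nt stretches paired with each other with probabilities of 0.978 to 1.00. The share of Ddx17 members predicted unpaired then went from 43.5% to 17.6%, while over all A and C of Ddx17 it went from 40.4% to 35.8%. Outside Ddx17 joining the amplicons took the members' share from 45.4% to 46.5%.

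Members lay in groups along the RNA. Another member stood within 5 nt of 216 members (35.8%), whereas 14.9% of all A and C had a member that near. Directly adjacent were 117 members (19.4%), against 3.53% of all A and C. Without Ddx17, 27.6% had another within 5 nt, against 14.2%, and 57 of 518 had one directly adjacent, against 3.13%. Joined at gaps of at most 5 nt, 193 positions formed 73 groups of 2 or more, 22 groups had 3 or more, the longest held 11, and 360 positions stood alone. Grouping was also a property of the mirror rule, where 50.7% had another within 5 nt, against 24.4% of all A and C.

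Besides Ddx17, a dense window lay in Tulp4. In Tulp4, 7 of 9 A and C between 195 and 205 were members, with medians of 3204, 3389 and 3618 CPM in untreated cells, 3441, 3465 and 3636 CPM after ATP depletion and 8728, 6793 and 7727 CPM in vitro. Their ratios were narrow, from 2.06 to 3.03 times. The ATP-depleted and untreated medians of that window overlapped, and the in vitro medians stood apart.

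Bases around the members were read by distance. A and C that met the rule are members and are left out here, so the A and C that remain are filtered by the change itself, while U and G are not. Non-member A and C directly beside a member had a median log2 change, in vitro minus untreated, of 0.12 (454 readings, 63.4% higher in vitro). At 3 to 5 nt it was -0.09 (1321 readings, 43.6% higher), and beyond 20 nt it was -0.01. For U the medians were 0.22 directly beside a member (200 readings, 75.0% higher), -0.06 at 3 to 5 nt and -0.04 beyond 20 nt, and for G directly beside a member the median was 0.04. A mirror-rule nucleotide stood directly beside 3.48% of members and 6.03% of all A and C, and within 5 nt of 28.2% and 24.4%.

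**Figure D5:**
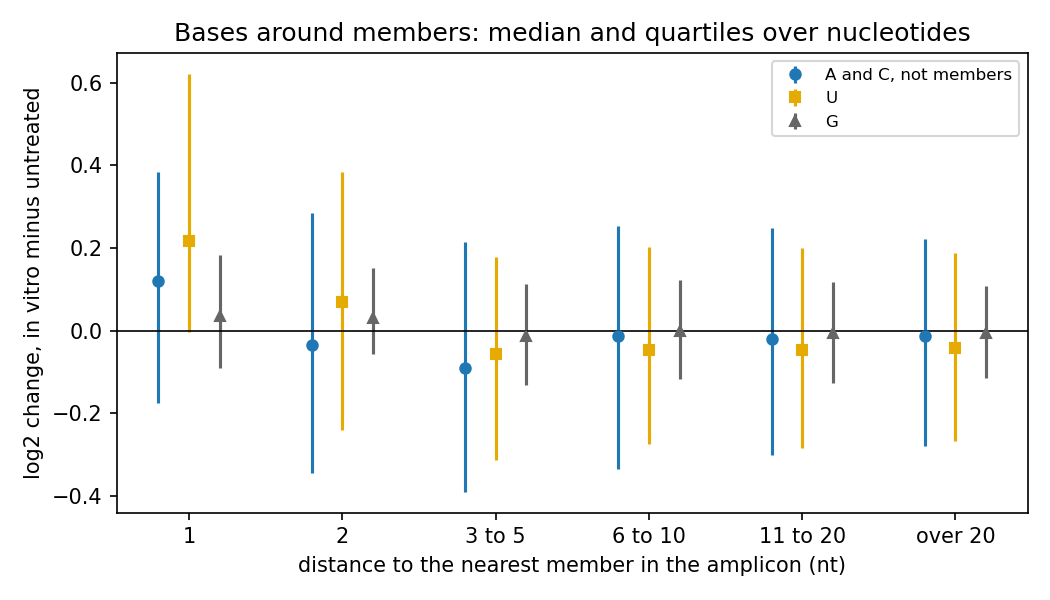
Log2 change from untreated cells to in vitro, on the scale with the pseudocount, of nucleotides by distance in nt to the nearest member, for A and C that were not members, U and G; points are medians and bars quartiles over nucleotides. Directly beside a member the medians are 0.12, 0.22 and 0.04, and from 3 nt on they lie between -0.09 and 0.00.

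In base composition, A made up 39.1% of members (95% Wilson interval 35.3 to 43.1) and 42.3% of all A and C. The mirror rule gave 19.4% A, so nucleotides lower after refolding were mostly C and those raised were near the background mix. C members had a G on their 5′ side in 40.1% (35.2 to 45.1), against 31.5% of all C, and a C there in 23.4%, against 32.4%. At least 1 neighbouring G was found at 56.4% of C members and 46.2% of all C. Eif5 C295, printed above, is such a C, with a G on both sides. Runs of 2 or more C held 47.7% of C members and 54.7% of all C. C found by the mirror rule, which changed the other way, had a G on their 5′ side in 37.1% (34.0 to 40.3) and a C there in 27.8%. At least 1 neighbouring G was found at 52.2% of them, and runs of 2 or more held 50.4%. The G context was therefore not particular to C raised after refolding.

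Neighbours of A members were counted in the same way. A U followed 10.2% of A members and 16.7% of all A, a C followed 25.0% and 20.9%, and runs of 2 or more A held 44.5% and 44.8%. Of the members 9.95% were within 5 nt of an AUG, against 11.1% of all A and C, and 33.3%, 34.7% and 32.0% fell in the first, middle and last part of the amplicon when it was cut in 3. The GC content of the 10 bases on either side had a median of 65.0% for C members against 60.0% for all C, and of 50.0% for A members and for all A. By the mirror rule these medians were 65.0% for C and 55.0% for A. The intervals cover counting error only, and neighbouring readings share sequence and library.

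Positions in overlapping amplicons were read a second time from other primers. For 198 member readings with a second reading, the second in vitro mean was higher than its untreated mean in 190 (96.0%, 95% Wilson interval 92.2 to 97.9), against 53.5% of all A and C read in 2 amplicons. It was at least 2 times higher in 105 (53.0%), against 5.54%. Of 148 member positions read in 2 amplicons, 50 were members in both, 25 of them in Ddx17. These 50 positions enter the 198 from both sides, as 100 readings whose second reading is at least 2 times higher by the rule itself. The share of 53.0% is therefore one of readings and not of positions, and the interval takes paired readings as separate. Ddx17 C821 was higher by 22.2 and 18.7 times, C831 by 13.4 and 11.7 times, C837 by 10.3 and 20.9 times and C782 by 11.3 and 9.73 times in its 2 readings. Outside Ddx17 the second mean was higher in 135 of 143 (94.4%) and at least 2 times higher in 37.8%. Both amplicons come from the same RNA samples, so the second reading repeats the amplification and not the experiment.

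Members chosen by the same rule on replicates of 2 numbers were then read in the replicate left out. The left-out in vitro value exceeded the left-out untreated value at 79.2%, 75.6% and 77.5% of 824, 828 and 1122 such members, against 57.4%, 58.6% and 54.9% of all A and C at an in vitro mean of at least 3000. It was at least 2 times higher at 47.3%, 46.5% and 29.9%, against 13.6%, 12.4% and 7.0%. The left-out ratio had medians of 1.92, 1.85 and 1.56 over the members chosen. With only in vitro replicate 3 omitted, 936 readings met the rule in place of 603.

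The depth behind members varied. The smallest in vitro count at a member had a median of 192 and a lowest value of 1, and 45 members had fewer than 20 counts in an in vitro sample. In the untreated samples, which were chosen low, the smallest count had a median of 126. There 72 members had fewer than 20 counts in a sample. Amplicons whose libraries all reached 5000 counts held 462 members, 4.02% of A and C there, against 3.01% in the other amplicons. The count also moved with the scaling of amplicons, in both directions. With each amplicon and sample divided by its mean, 375 readings met the rule, 368 of them among the 603, and with division by the median 772 did, 522 of them among the 603.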

How the data were processed

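The deposited table holds log2 values per nucleotide and sample. The unit was worked out from the values: whole counts plus 0.5 per library size, recovered in 1449 of 1449 amplicon libraries (tolerance 0.0001). bcl2fastq, Bowtie2 and limma are named in the submitters' processing notes, without versions; their roles and settings are not given. No sample without dimethyl sulfate was analysed here.

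Values were turned back to 2 to the power of the deposited value (CPM). limma 3.58.1 in R 4.3.3 was fitted on log2(CPM + 3196.78), the pseudocount being 0.5 times the pooled median of A and C, to all 9 samples and 16178 A and C readings, with Benjamini-Hochberg adjustment over all of them; 9 readings had no counts. Fold changes on this scale understate weak nucleotides. The script was tested on simulated data. ViennaRNA 2.7.2 folded sequences at 37 °C. Gene names came from RefSeq accessions, 68 of 69 matched.

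Groups came from sample titles. The members and lists were chosen with earlier results of these data known. Nucleotides were named by rule in amplicons whose libraries all reached 5000 counts: the 6 largest ratios (at most 2 per transcript), the 4 highest in vitro means, the 3 densest windows of 20 nt, the 3 smallest and 3 largest ATP-depleted shares (a position read in 2 amplicons taken once, from the reading with the larger ratio), those beside the thresholds, the 4 best seen in 2 amplicons, and transcripts by member count. Same-numbered replicates did not deviate together (correlations of -0.0177 to 0.100), so numbers were not taken as pairs. Alternatives covered thresholds, scaling, pseudocount, filters, fit options, folding span and omission of samples. Some items that the naming rule picked are not reported here.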

Additional observations from a re-analysis of the deposited data

Results flagged for a closer look

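U and G were outside the choice of members, and the same thresholds were applied to them. In all, 233 of 7088 U readings (3.29%) and 117 of 9692 G readings (1.21%) met them. Of these, 47 U and 14 G stood directly beside an A or C member. The U readings had medians of 7616 CPM in vitro, 2801 CPM in untreated cells and 3702 CPM after ATP depletion, and the G readings had 4416, 1441 and 1779 CPM.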

How the results depend on the processing

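The count of 603 became 1575 at a ratio of 1.5, 168 at a ratio of 3, 933 with overlapping values allowed and 375 with each amplicon divided by its mean, and 772 with each divided by its median; leaving out 1 replicate gave 706 to 936, the last without in vitro replicate 3. The cause was not tested. At a ratio of 3 the A share was 33.9%, members with another within 5 nt were 39.9%, the ATP-depleted share was 26.8% and the left-out replicate was higher at 73.0%. In amplicons of at least 5000 counts the share within 5 nt was 40.3% and the left-out replicate was higher at 85.1%. Without Ddx17 these were 27.6% and 75.3%, and the ATP-depleted share was 44.1%; leaving out 1 replicate gave 42.4% to 46.6%. Base pairs limited to 100 nt gave 49.4% unpaired. Only 364 members lay at or above the median mean, of which 288 were called against untreated and 269 against ATP-depleted cells. Over all A and C tested there the shares were 11.7% and 12.3%. With a replicate block these calls were 447 and 405 of 603, against 6.53% and 6.76% of all tested A and C. ATP depletion gave 0 called members and 0% of all tested A and C in all settings run. Leaving out 1 replicate gave 355 to 469 calls against untreated and 298 to 434 against ATP-depleted cells. The shares over all tested A and C then ran from 4.07% to 7.69% and from 3.47% to 8.23%. Nothing is read from the calls against untreated cells, since the choice used that contrast. Of 481 values for 25 named members, 474 kept direction and call; Kmt2e A450 reversed to -0.10 and -0.0975 under scaling by amplicon mean and median. Settings with Ddx17 left out, scaling by the amplicon median and joined folding were chosen after seeing the data. Depth and an unknown coverage per position limit weak nucleotides.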
